A study of Mus musculus with 2 samples.

Results

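The heat shock chaperones described here were 10 genes, namely Hspa1a, Hspa1b, Hspa8, Hsp90aa1, Hsph1, Dnajb1, Dnaja1, Hspb1, Hspe1 and Hspd1, taken by symbol from the 32285 genes listed in both libraries, and all 10 were found. They were followed in live mononuclear cells from the limb muscle of aged C57BL/6 mice that had received either the drug Maraviroc (MVC) or its vehicle DMSO, both by intraperitoneal injection. Hindlimb muscle was digested with collagenase in the warm, red blood cells were lysed, live cells were sorted with a viability dye, and 1 droplet library (10x Genomics) was made per treatment. The paper places these cells in its high-dose, short-term treatment scheme, and how many mice went into each library was not given in the sources used here. With 1 library per group there was no replicate and no test between groups. Each interval below is a 95% interval for counting error alone and does not cover differences between animals, digestions or libraries.

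Chaperones bind unfolded or aggregation-prone proteins and help them to fold, be held or be degraded. Under heat, protein damage or other stress, heat shock factor 1 (Hsf1) is released from chaperones, binds heat shock elements in promoters and drives the inducible chaperone genes. Digestion of a tissue in the warm is itself known to switch these genes on. Hspa1a and Hspa1b encode the inducible Hsp70, Hspa8 the constitutive Hsc70, Hsp90aa1 the inducible Hsp90, and Hsph1 the Hsp110 that exchanges nucleotide on Hsp70. Dnajb1 and Dnaja1 are J-domain proteins that hand clients to Hsp70, Hspb1 is a small heat shock protein that holds unfolded proteins, and Hspd1 and Hspe1 form the chaperonin of the mitochondrial matrix.

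All 10 were protein-coding genes on GRCm38 (GENCODE M21). Hspa1a (ENSMUSG00000091971, chr17:34969190-34972156) and Hspa1b (ENSMUSG00000090877, chr17:34956436-34959238) each have 1 exon, lie on the minus strand and are 9951 bases apart. Hspe1 (plus strand, chr1:55088132-55091307) and Hspd1 (minus strand, chr1:55077835-55088243) are arranged head to head and overlap by their starts. The remaining members lie apart from each other, Hspb1 at chr5:135887919-135889563, Hsph1 at chr5:149614287-149636376, Hsp90aa1 at chr12:110690605-110702728, Hspa8 at chr9:40800984-40810087, Dnajb1 at chr8:83608193-83612653 and Dnaja1 at chr4:40722150-40737149.

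RefSeq promoters (GRCm38.p6) were at hand for 8 of the 10 members, the exceptions being Hsp90aa1 and Hspa8, and are shown because the heat shock element is the feature that members are known to share. The search was for an element of 2 units, GAANNTTC or TTCNNGAA, each of which reads the same on both strands, in the 250 bases before each start. A gene was counted when any of its listed starts had such a match. This held for 7 of the 8 members, against 14.6% of all 27025 genes in the promoter table. Dnaja1 and Hspd1 also had listed starts without a match. A run of 3 alternating units was found for 2 of the 8, Hspe1 and Hspd1, against 0.514% of all genes. In the first 3 lines and the Dnajb1 line the last 200 bases before the start are given, and in the others the matched bases with 6 bases on each side. All are written 5′ to 3′ on the strand of the gene, and capitals mark the matches.
Hspa1a (chr17:34972157-34972356, minus strand): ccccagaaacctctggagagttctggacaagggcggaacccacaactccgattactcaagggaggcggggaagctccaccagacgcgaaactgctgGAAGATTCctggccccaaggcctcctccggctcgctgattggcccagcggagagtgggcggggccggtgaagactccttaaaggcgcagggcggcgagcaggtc
Hspa1b (chr17:34959239-34959438, minus strand): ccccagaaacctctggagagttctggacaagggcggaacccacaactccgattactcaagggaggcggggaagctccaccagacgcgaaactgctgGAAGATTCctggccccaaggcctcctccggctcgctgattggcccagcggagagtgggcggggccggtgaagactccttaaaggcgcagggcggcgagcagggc
Hspb1 (chr5:135887719-135887918, plus strand): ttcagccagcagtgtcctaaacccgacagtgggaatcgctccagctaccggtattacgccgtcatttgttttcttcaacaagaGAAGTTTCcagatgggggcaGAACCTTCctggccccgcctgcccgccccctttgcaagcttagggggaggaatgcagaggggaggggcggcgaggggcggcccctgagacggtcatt
Hsph1 (chr5:149636356-149636375, minus strand): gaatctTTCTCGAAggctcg
Dnaja1 (chr4:40722338-40722357, plus strand): cctctaGAAAATTCtacgag
Hspe1 and, on the other strand, Hspd1 (chr1:55088053-55088082, plus strand): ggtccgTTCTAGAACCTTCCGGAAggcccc
Dnajb1 (chr8:83607975-83608174, plus strand, no match): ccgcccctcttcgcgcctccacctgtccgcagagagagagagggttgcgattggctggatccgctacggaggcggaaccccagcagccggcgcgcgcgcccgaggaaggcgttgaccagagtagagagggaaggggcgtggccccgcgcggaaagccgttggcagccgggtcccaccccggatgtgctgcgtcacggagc

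The promoters of Hspa1a and Hspa1b were identical at 199 of these 200 positions, with the match ending 96 bases before the start in both. Hspb1 held 2 matches. Hspe1 and Hspd1 share 1 stretch of 18 matched bases, which lies between a RefSeq start of each. A match is a string of letters and was not tested for binding, and the absence of one at Dnajb1 says only that these letters are not in this window.

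The transcripts differ in how well their reads can be told from those of other genes. Of all 31-base words in the longest Hspa1a and Hspa1b transcripts, 65.4% and 68.1% also occur in another gene, mostly in each other. In the last 500 bases, which a 3′ chemistry reads (the kit was not given in the sources used here), the shares were 0% and 2.98%. Their whole transcripts are thus alike while their ends differ. The last 500 bases of Hspa8, Hspe1 and Hspb1 shared 85.3%, 68.5% and 27.0% of their words with other genes, mostly pseudogenes, and their levels are therefore less certain than those of Hsph1 or Dnajb1, which shared none there. Levels are not compared between genes.

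Barcodes with fewer than 500 genes, or with over 10% of their UMIs (unique molecular identifiers, the count of captured transcripts) from mitochondria, were removed, and 5437 DMSO cells and 5454 MVC cells remained, with medians of 5802 and 5195 UMIs. The labels gave no cell types, so cells were clustered with all chaperone genes left out, which gave 27 clusters, of which 26 were assigned to 14 classes from fixed markers. Classes are called "X-like" for that reason, and 8 of them held at least 100 cells in each library. These were endothelial-like (EC-like, 2231 DMSO and 1899 MVC cells), fibro-adipogenic progenitor-like (FAP-like, 1180 and 1432), tenocyte-like (459 and 523), pericyte-like (252 and 239), smooth muscle-like (SMC-like, 210 and 172), muscle stem cell-like (MuSC-like, 145 and 259), macrophage-like (150 and 211) and B cell-like (205 and 103). The libraries listed 9 barcodes in common, of which 8 were kept. Doublet calls made up 23.3% and 21.5% of SMC-like cells, and at most 6.18% of the other 7 classes in either library.

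The 10 chaperones together took 1.998% of all UMIs in the DMSO library and 2.39% in the MVC library. Their summed share differed more between cell classes than between the libraries. Pericyte-like cells of the DMSO library gave the highest share, 3.12%, and EC-like cells followed with 2.64%, while macrophage-like cells gave 1.47%, tenocyte-like cells 1.34% and B cell-like cells 1.02%. In the MVC library the order was another one, with MuSC-like cells first at 3.23%, then EC-like cells at 2.82%, FAP-like cells at 2.65% and pericyte-like cells at 2.30%. Neutrophil-like cells, a class of only 65 DMSO and 34 MVC cells, were lowest in both libraries at 0.376% and 0.149%, although their median depth, 6421 and 6087 UMIs, was above that of EC-like cells.

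The inducible Hsp70 genes were broadly on. Hspa1a was at 7333 CPM (counts per 1000000 UMIs of a class, interval 7174 to 7495) in pericyte-like and 5149 CPM (5105 to 5193) in EC-like cells of the DMSO library, and at 1520 CPM in tenocyte-like cells. In the MVC library it was at 5841 CPM in EC-like, 4956 CPM in pericyte-like and 1701 CPM in B cell-like cells. None of the 7 neighbours in the DMSO order had overlapping intervals, and in the MVC order FAP-like and MuSC-like cells, at 4266 and 4246 CPM, could not be told apart. Vascular classes thus headed the order in both libraries, with EC-like and pericyte-like cells in exchanged places.

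Shares of cells with at least 1 Hspa1a UMI, with each cell thinned to 2000 UMIs, were 87.6% and 88.0% in EC-like cells and 89.9% and 85.3% in pericyte-like cells of the DMSO and MVC libraries. Before thinning they were 90.8%, 89.7%, 88.5% and 80.3%. In neutrophil-like cells the thinned shares were 4.62% of 65 and 9.09% of 33 cells, from unthinned shares of 20% and 26.5% and at median depths of 6421 and 6087 UMIs against 3760 and 3468 in EC-like cells. Free RNA was not removed and its size was not estimated, and the shares in neutrophil-like cells set no bound on it in classes of other depth. Of all Hspa1a UMIs in neutrophil-like cells of the DMSO library, 85.3% came from 3 cells.

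Hspb1, the small heat shock protein, divided the classes most sharply. In the DMSO library it was at 5201 CPM in EC-like, 4419 CPM in pericyte-like and 2936 CPM in SMC-like cells, and at 524 CPM in macrophage-like and 132 CPM in B cell-like cells, a range of 39.5-fold over the 8 classes. In the MVC library the range was 11.1-fold. For the other members the range over classes lay between 1.99-fold (Hspa8, MVC) and 6.96-fold (Dnajb1, MVC). No neighbours in the order of Hspb1 had overlapping intervals in either library, whereas 51 of the 140 neighbouring pairs over all members and both libraries did.

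MuSC-like cells held the highest level of Hsp90aa1 and Hspa8 in both libraries, at 4109 and 5645 CPM for Hsp90aa1 and 3401 and 3935 CPM for Hspa8. Hspa8 in MuSC-like and EC-like cells of the DMSO library (3401 and 3260 CPM) had overlapping intervals. EC-like cells were highest for Dnaja1, at 1807 CPM in DMSO and 1983 CPM in MVC, the latter overlapping with MuSC-like cells at 1919 CPM. B cell-like cells were the lowest of the 8 classes for 6 members in DMSO and 8 in MVC.

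**Figure D1:**
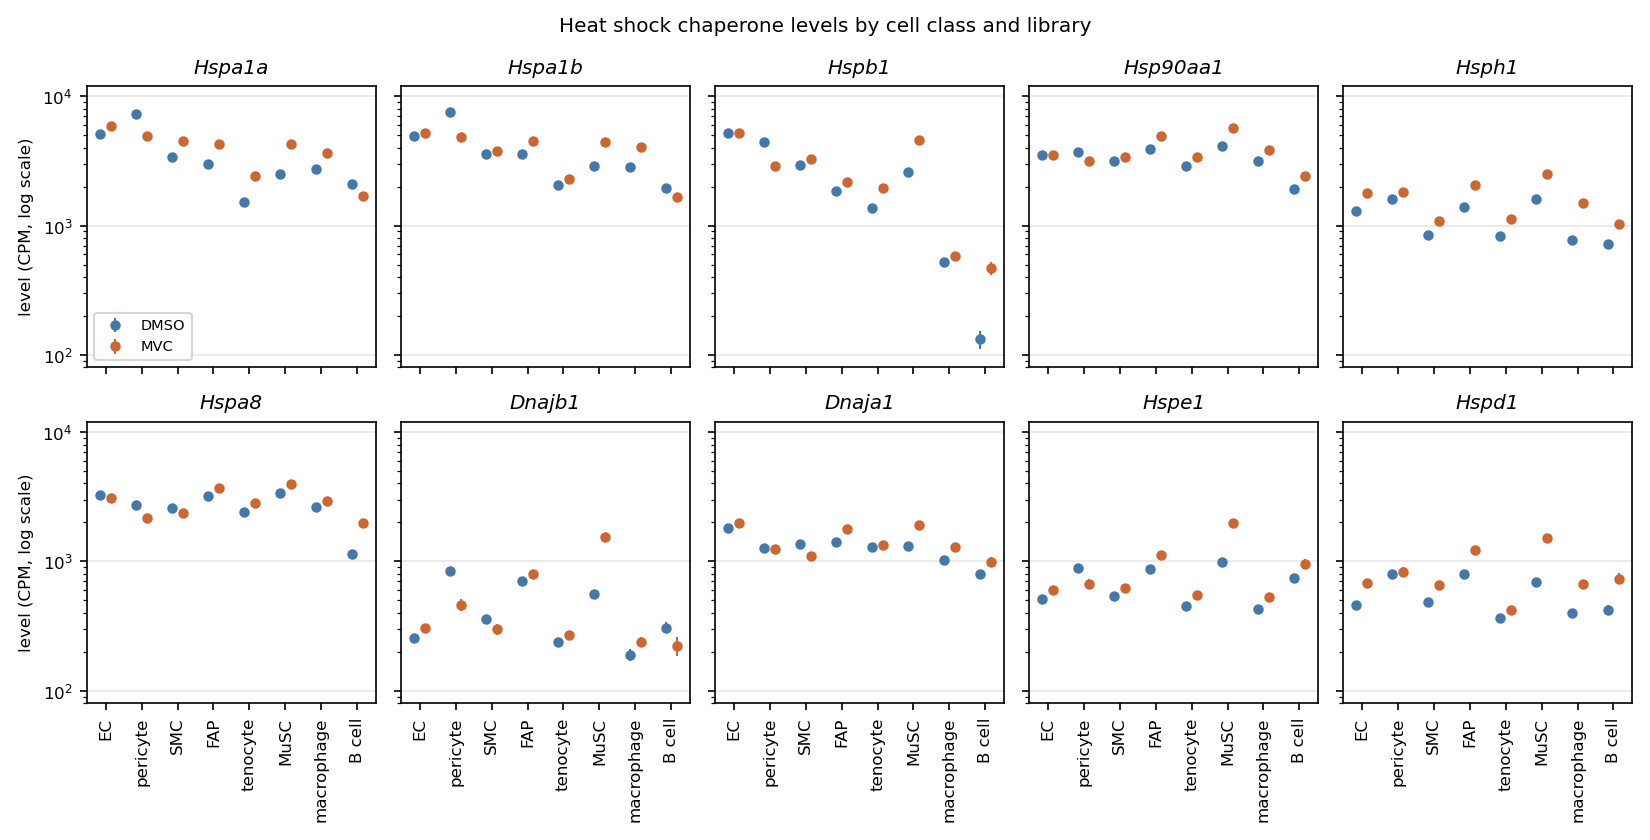
Level of each heat shock chaperone (CPM, log scale) in the 8 cell classes, with the DMSO library in blue and the MVC library in orange, and bars for 95% Poisson intervals (counting error only, often smaller than the point). Hspb1 spans 39.5-fold over classes in DMSO, and the MVC points of MuSC-like cells lie above the DMSO points for all 10 genes.

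The comparison the design holds is MVC against DMSO within a class. A member was counted as higher or lower when its CPM ratio passed 1.5-fold, a rule of size and not a test. Of the 80 pairs of member and class, 14 were higher and 3 lower in MVC, and the 3 lower pairs were all in pericyte-like cells. Over all measured genes 9.08% to 12.0% were higher and 3.08% to 9.27% lower, depending on the class. The number of members past the fold ranged from 7 in MuSC-like cells to 0 in EC-like and SMC-like cells. The 3 lower of 80 pairs, and a count of 0 or 1 of 10 members in a class, are near these shares.

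In MuSC-like cells all 10 members were above a ratio of 1 and 7 were higher past 1.5-fold, while 10.1% of the 6418 genes measured in these cells were higher and 9.27% lower. Dnajb1, the J-domain partner that is itself a target of Hsf1, went from 556 to 1542 CPM (ratio 2.77, interval 2.54 to 3.03). The chaperonin genes were next, with Hspd1 at 697 and 1511 CPM (2.17, 2.001 to 2.35) and Hspe1 at 987 and 1966 CPM (1.99, 1.86 to 2.13). The median log2 ratio of the members was 0.71, against -0.04 for all measured genes.

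Hspb1 in MuSC-like cells was at 2595 CPM in DMSO and 4620 CPM in MVC (ratio 1.78, interval 1.71 to 1.86). Hspa1a was at 2489 and 4246 CPM (1.71, 1.63 to 1.78) and Hspa1b at 2910 and 4444 CPM (1.53, 1.47 to 1.59). Hsph1 was at 1604 and 2513 CPM (1.57, 1.48 to 1.66). Both inducible Hsp70 genes, the Hsp110 gene and the small heat shock protein were thus past the fold here. Hspa1b and Hsph1 were close to it, and were within it under 2 and 3 of the 10 alternatives tried.

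The members within 1.5-fold in MuSC-like cells were Hsp90aa1 (4109 and 5645 CPM, ratio 1.37), Dnaja1 (1321 and 1919 CPM, 1.45) and Hspa8 (3401 and 3935 CPM, 1.16). Hspa8, the constitutive Hsc70, had the smallest ratio of the 10.

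**Figure D2:**
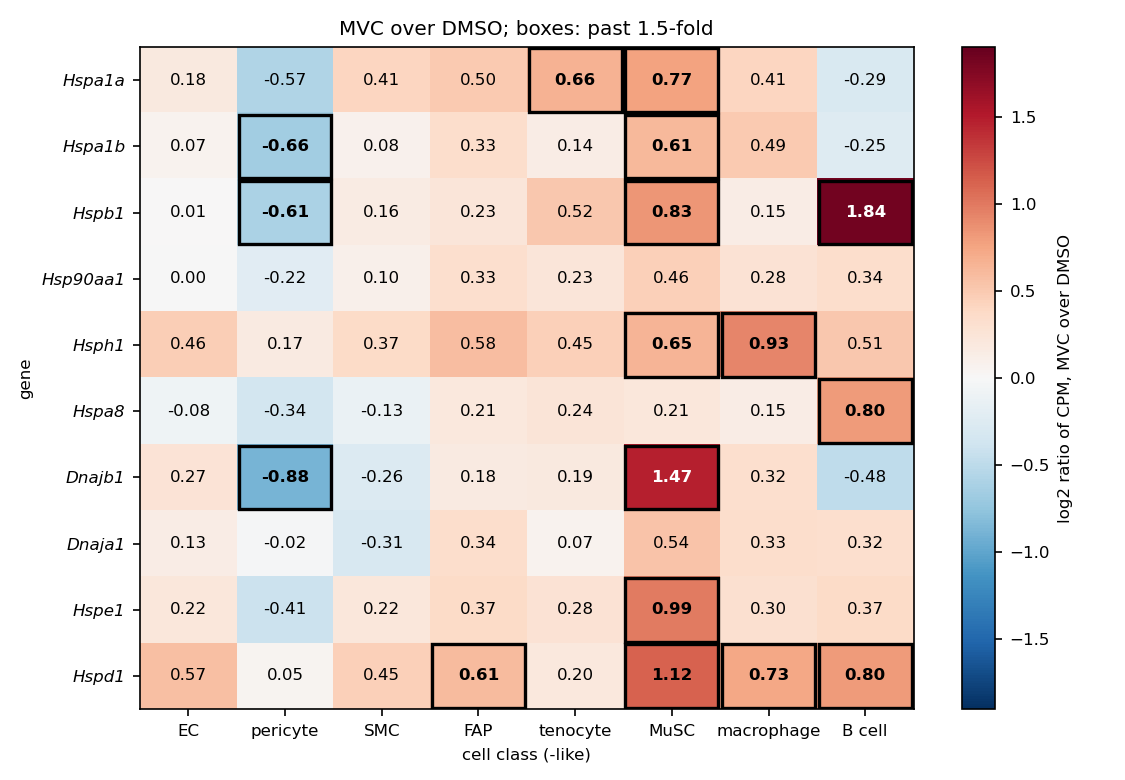
Log2 ratio of CPM, MVC over DMSO, for each chaperone (rows) in each cell class (columns), in red where higher in MVC and blue where lower, with boxes and bold type for values past 1.5-fold. The boxes fill 7 of 10 rows for MuSC-like cells, and the 3 blue boxes are all in pericyte-like cells.

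The higher level in MuSC-like cells was carried by the upper tail of the cells. With each cell thinned to 2000 UMIs, the 10 chaperones made up a median of 1.53% of a cell's UMIs in DMSO (140 cells) and 1.55% in MVC (250 cells), whereas the 90th percentile was 3.93% in DMSO and 9.26% in MVC. Cells with more than 5% of their UMIs in these genes were 11 of 140 (7.86%) in DMSO and 56 of 250 (22.4%) in MVC. The typical cell thus had a like share in both libraries while the upper tail was longer in MVC.

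Single genes differed in this. The median of Hspa1a was 3 UMIs per thinned cell in both libraries, and its 90th percentile was 13 UMIs in DMSO and 27.1 in MVC. The median of Hspb1 was 0 in DMSO and 2 in MVC, and its 90th percentile 15.2 and 29.2. The share of thinned cells with an Hspa1a UMI was 75.7% (interval 67.8 to 82.6) in DMSO and 71.6% (65.6 to 77.1) in MVC, and the unthinned shares were 81.4% and 84.6%. For Dnajb1 the thinned share was 32.9% (25.2 to 41.3) and 45.6% (39.3 to 52.0), from unthinned shares of 56.6% and 62.2%, and for Hspb1 47.9% (39.4 to 56.5) and 66.0% (59.8 to 71.9), from 62.1% and 74.9%. The thinned intervals of Hspa1a and of Dnajb1 overlapped between the libraries, and those of Hspb1 did not.

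**Figure D3:**
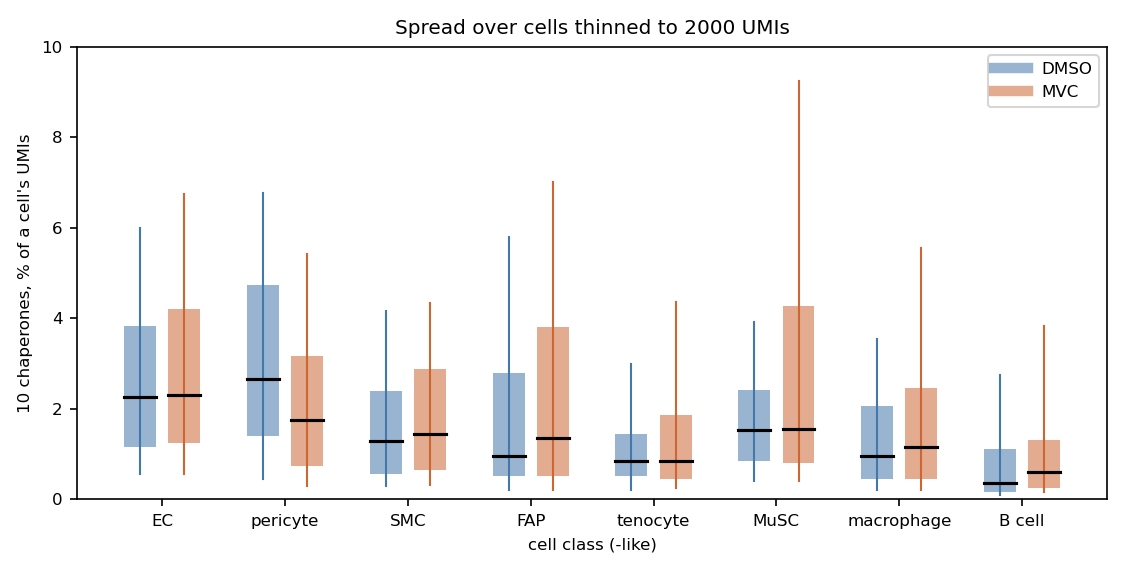
Share of a cell's UMIs taken by the 10 chaperones, in percent, for cells thinned to 2000 UMIs, by cell class and library (DMSO blue, MVC orange), with boxes from the first to the third quartile, a black line at the median and whiskers from the 10th to the 90th percentile. In MuSC-like cells the medians are 1.53% and 1.55% and the upper whiskers end at 3.93% and 9.26%.

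The levels of other classes' markers in MuSC-like cells also differed between the libraries. The summed level of 10 MuSC markers was 2715 CPM in DMSO and 2686 CPM in MVC, with none at 0. That of 12 FAP markers was 488 CPM in DMSO, with 4 of them at 0, and 2108 CPM in MVC, with none at 0, and without called doublets it was 494 and 920 CPM. That of 9 pericyte markers was 145 and 432 CPM. That of 8 skeletal muscle fibre markers was 1436 CPM in DMSO, 99.4% of it in 3 cells, and 131 CPM in MVC. With called doublets removed the median log2 ratio of the members in MuSC-like cells was 0.73 and the range 0.19 to 1.38, so the difference was as large without them, and the part of these markers in it was not tested.

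Pericyte-like cells went the other way. Of the 10 members 3 were lower past 1.5-fold and none higher, while 7.58% of the 5564 genes measured were lower and 9.88% higher. Dnajb1 was at 848 CPM in DMSO and 462 CPM in MVC (ratio 0.544, interval 0.481 to 0.616), Hspa1b at 7582 and 4806 CPM (0.634, 0.610 to 0.659), and Hspb1 at 4419 and 2903 CPM (0.657, 0.625 to 0.691). Hspa1a, at 7333 and 4956 CPM, lay just within the fold (0.676, 0.650 to 0.702). The members' median log2 ratio was -0.38, against 0.05 for all measured genes.

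Hsph1 (1610 and 1807 CPM, ratio 1.12) and Hspd1 (801 and 830 CPM, 1.04) were the members above 1 in pericyte-like cells. The intervals of Hspd1 and of Dnaja1 (1256 and 1235 CPM) span 1, and Hspe1 (891 and 672 CPM, 0.754), Hspa8 (2736 and 2155 CPM, 0.787) and Hsp90aa1 (3701 and 3185 CPM, 0.861) were lower within the fold. Within this class Hspe1 and Hspd1, which share a promoter stretch, therefore had unlike ratios.

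Unlike in MuSC-like cells, the middle of the distribution differed in pericyte-like cells. The 10 chaperones made up a median of 2.65% of a thinned cell's UMIs in DMSO (227 cells) and 1.75% in MVC (143 cells), and the 90th percentile was 6.77% and 5.42%. The median of Hspa1a was 13 UMIs per thinned cell in DMSO and 5 in MVC, and that of Hspa1b 12 and 5.

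Depth was lower in the pericyte-like cells of MVC, at 2462 UMIs per cell (median) against 3808 in DMSO, and thinning left out 96 of 239 MVC and 25 of 252 DMSO cells. The summed level of 9 pericyte markers was 16749 CPM in DMSO and 12932 CPM in MVC, with none at 0 in either. That of 12 FAP markers was 2810 and 2265 CPM, 52.9% and 54.6% of it in 3 cells, and 306.5 and 994 CPM without called doublets. Haemoglobin and other erythroid genes, 6 in all, summed to 6019 CPM in DMSO, 99.8% of it in 3 cells, and to 54.0 CPM in MVC. With barcodes under 1000 genes or over 5% mitochondrial UMIs removed, Hspa1b and Hspb1 were within the fold (log2 ratio -0.57 and -0.51), and 1 member was lower in place of 3. The same count, 1, held when each cell was assigned by its own markers, with log2 ratios of -0.39 for Hspa1b and -0.16 for Hspb1. With called doublets removed the members' median log2 ratio was -0.21 in place of -0.38, and the same 3 members stayed lower past the fold. The part of depth, of these markers and of doublets in the result was not tested.

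The other 6 classes held 7 of the 14 higher pairs and none of the lower ones. In FAP-like cells all 10 members were above 1 but only Hspd1 passed the fold (805 and 1225 CPM, ratio 1.52, interval 1.49 to 1.56), with 12.0% of genes higher and 3.08% lower. The median of all genes in this class was itself shifted by a log2 ratio of 0.14, and relative to it the members' median of 0.33 and the 0.61 of Hspd1 are smaller by that amount. Hspd1 was within the fold in FAP-like cells under median-of-ratios scaling, at a log2 ratio of 0.47. Hsph1 (1386 and 2076 CPM, ratio 1.499) lay just inside the fold and Hspa1a (3018 and 4266 CPM, 1.41) below it.

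In tenocyte-like cells 1 member was higher, where 9.08% of genes were higher and 5.36% lower. That member was Hspa1a, at 1520 and 2410 CPM (ratio 1.59, interval 1.54 to 1.64), while its neighbour Hspa1b was at 2075 and 2287 CPM (1.102, 1.07 to 1.14). The pair thus separated here although their promoters are nearly identical. Without called doublets Hspa1a was within the fold at a log2 ratio of 0.55.

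In macrophage-like cells 2 members were higher, where 10.1% of genes were higher and 6.23% lower. These were Hsph1, at 778 and 1484 CPM (ratio 1.91, interval 1.79 to 2.03), and Hspd1, at 401 and 668 CPM (1.66, 1.52 to 1.82). All 10 members were above 1. Of the Hspb1 UMIs of this class, 48.9% in DMSO and 22.9% in MVC came from 3 cells, and no direction is read from its ratio of 1.11.

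In B cell-like cells 3 members were higher, where 11.6% of genes were higher and 7.70% lower. Hspa8 was at 1133 and 1978 CPM (ratio 1.746, interval 1.61 to 1.89) and Hspd1 at 421 and 735 CPM (1.745, 1.53 to 1.99). Hspb1 was at 132 and 470 CPM (3.57, 2.93 to 4.37), the highest ratio of all 80 pairs, but 46.1% of its 154 DMSO UMIs and 56.7% of its 291 MVC UMIs came from 3 cells each. Hspa1a, Hspa1b and Dnajb1 were below 1 in B cell-like cells, with ratios of 0.817, 0.843 and 0.719. Of the MVC UMIs of Hspa1a and Hspa1b in this class 42.4% and 40.2% came from 3 cells, and 22.3% and 20.1% of the DMSO UMIs. The thinned share of cells with an Hspa1b UMI was 31.8% in DMSO and 46.6% in MVC, against the direction of its CPM, and no direction is read for these genes.

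In EC-like cells none of the 10 members passed the fold, where 9.70% of genes were higher and 4.13% lower. Hspd1 came closest (459 and 682 CPM, ratio 1.49, interval 1.43 to 1.55), followed by Hsph1 (1300 and 1794 CPM, 1.38). Hspb1 (5201 and 5236 CPM, 1.01) and Hsp90aa1 (3508 and 3500 CPM, 0.998) had intervals that span 1. In SMC-like cells none passed either, where 12.0% were higher and 5.22% lower. Hspd1 (484 and 661 CPM, 1.37) and Hspa1a (3396 and 4515 CPM, 1.33) had the highest ratios there. The summed level of 12 EC markers in SMC-like cells was 6305 CPM in DMSO and 5961 CPM in MVC. That of 9 SMC markers was 6600 and 7589 CPM. Without called doublets the EC markers were at 2458 and 4073 CPM, and Hspa1a passed the fold at a log2 ratio of 0.66. The part of these markers was not tested.

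Read by gene, Hspd1 and Hsph1 were above 1 in all 8 classes, with log2 ratios of 0.05 to 1.12 and 0.17 to 0.93. The lowest of these, Hspd1 in pericyte-like cells, was near the all-gene median of 0.05 there, and its interval spans 1. Hspd1 passed the fold in 4 classes, and Hspa1a, Hspb1 and Hsph1 each passed it upward in 2. The call of Hspd1 in FAP-like cells was lost under 3 of the 10 alternatives. How many of all genes passed the fold in as many classes was not counted. Dnajb1 had the widest range of the members outside B cell-like cells, from -0.88 in pericyte-like to 1.47 in MuSC-like cells. Hsp90aa1 and Dnaja1 passed the fold in no class.

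Classes with several clusters were also read cluster by cluster, because the clusters took unlike shares of the libraries. EC-like cluster 1 (led by Slc1a1 and Cldn5) held 935 DMSO and 551 MVC cells, and cluster 3 (led by Depp1 and Rassf9) 388 and 623. In cluster 1 all 10 members were above 1 and 4 were higher past the fold, where 7.80% of genes were, with Hspd1 at 526 and 1003 CPM (ratio 1.91). In cluster 3 only 2 members were above 1, and Hspb1 was at 6686 and 4973 CPM (0.744).

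In EC-like cluster 5, led by Gkn3, Cytl1 and the arterial gene Gja5, all 10 members were above 1 and 4 were higher past the fold, where 8.40% of genes were, with Hspa1a at 3410 and 5325 CPM (ratio 1.56) and Dnajb1 at 150 and 277 CPM (1.85). Cluster 10, led by Selp, Sele and Ackr1, which are known from venules, had the lowest chaperone share of the EC-like clusters, 1.25% in DMSO and 1.24% in MVC, with Hspa1a at 1468 and 1387 CPM. The EC-like class as a whole, which had no calls, thus pooled clusters with unlike directions. Clusters 9 and 10 had median log2 ratios of 0.04 and 0.02 over the 10 members. With each cluster given the same weight in both libraries, all 10 members were above 1 and only Hspd1 passed the fold. The part of this mixture in the absence of calls was not tested.

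The 4 FAP-like clusters all had a median log2 ratio of the members above 0, from 0.08 to 0.45. In clusters 2 and 17 it was 0.08 and 0.12, below the 0.14 of all genes in the FAP-like class. The median of all genes was not computed for single clusters. Cluster 2, led by Grm8, Cxcl14 and Mme, held 445 DMSO and 700 MVC cells and the highest share of the 10 chaperones, 3.35% and 3.55%, with no member past the fold, where 14.1% of all genes measured in the cluster were higher. Cluster 4 (Gdf10 and C7, 431 and 405 cells) was at 1.52% and 2.09%, with Hspb1, Hsph1 and Hspd1 past the fold and 8.71% of genes higher. In cluster 11 (Cxcl13 among its leading genes, 214 and 205 cells) Hspa1a was at 766 and 1525 CPM (ratio 1.99). Hsph1 was at 613 and 974 CPM (1.59) and Dnajb1 at 152 and 234 CPM (1.54) there. The share of all genes past the fold was not counted for cluster 11, so its members are given as values and not compared by calls. In cluster 17 (Pi16 and Cd248, 90 and 122 cells) no member passed, where 12.9% of genes did. With each cluster given the same weight in both libraries, no member was past the fold in FAP-like cells and Hspd1 was at a log2 ratio of 0.46.

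In tenocyte-like cluster 8, led by Wif1 and Kera, Hspb1 was at 1215 and 2414 CPM (ratio 1.99) and Hspa1a at 1427 and 2459 CPM (1.72). The share of all genes past the fold was not counted for cluster 8, so its members are given as values and not compared by calls. In the other tenocyte-like cluster, number 6, no member passed the fold, where 11.1% of genes were higher, and Hspb1 was at 1520 and 1494 CPM (0.983).

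**Figure D4:**
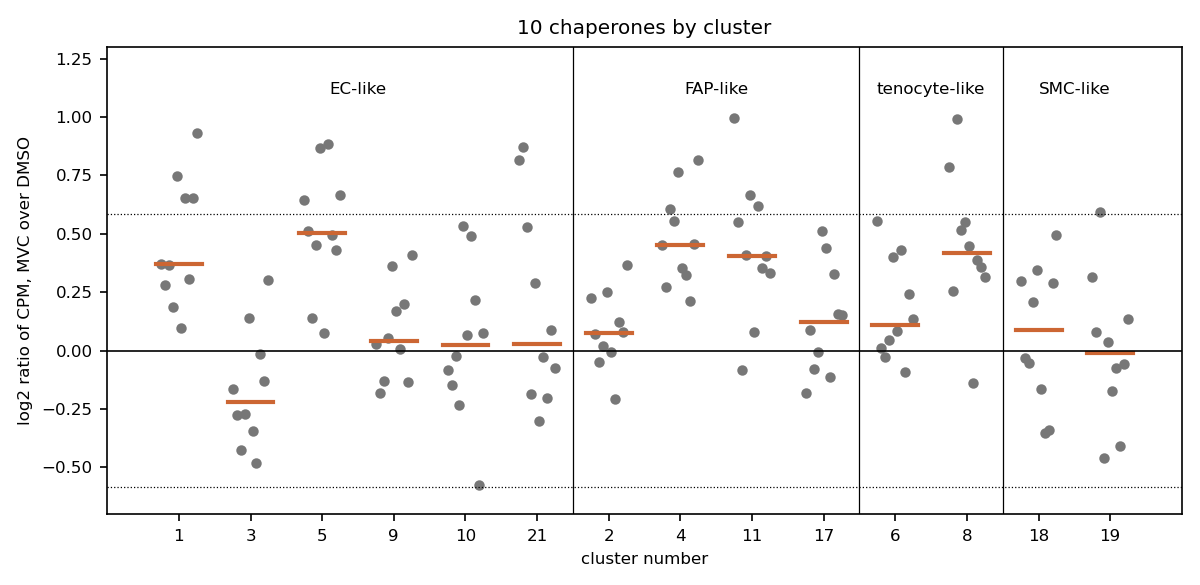
Log2 ratio of CPM, MVC over DMSO, of each of the 10 chaperones (grey points) in the clusters of the EC-like, FAP-like, tenocyte-like and SMC-like classes, with the median in orange and dotted lines at 1.5-fold. The median lies at 0.37 in EC-like cluster 1, -0.22 in cluster 3 and 0.50 in cluster 5.

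Over 25 points, each a class in 1 library, Hspa1a and Hspa1b had a Pearson r of 0.96 and Hspe1 and Hspd1 one of 0.95, on log2(CPM + 10). These were the highest of the member pairs, and Hspb1 and Hspe1 had the lowest, 0.26. Points of 1 library share its depth and preparation, so these values describe the order of levels only. Over single thinned MuSC-like cells the r of Hspa1a and Hspa1b was 0.77 in DMSO and 0.85 in MVC, and that of Hspa1a and Dnajb1 0.44 and 0.68. The genes that were most like Hspa1a over the 25 points, among 8016 genes with at least 1000 UMIs, were Tacc1 (r = 0.85), Clock (0.77), Wdr95 (0.75), Tdrd7 (0.74) and Fbxo22 (0.72). Those most like Hspb1 were Cdc42bpa (0.92), Osmr (0.91), Ptprg (0.91), Dusp8 (0.89) and Trip10 (0.89).

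In MuSC-like cells the rest of the chaperone network did not follow the members as a whole. Of 16 measured co-chaperones 3 were higher and 1 lower in this class, where 10.1% of all genes were higher and 9.27% lower. Bag3, the nucleotide exchange factor that links Hsp70 to the removal of aggregates and is itself induced by Hsf1, was at 792 and 1633 CPM (ratio 2.06, interval 1.91 to 2.23), and Ptges3, the Hsp90 co-chaperone p23, at 498 and 480 CPM (0.965). Of 14 measured further cytosolic chaperones 2 were higher, a share near that of all genes, with Hsp90ab1, the constitutive Hsp90, at 3338 and 4440 CPM (1.33) and Cryab, the muscle small heat shock protein, at 1109 and 902 CPM (0.814).

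All 14 measured chaperones and folding factors of the endoplasmic reticulum were below 1 in MuSC-like cells, and 4 were lower past the fold. Of all genes measured in this class, 10.1% were higher and 9.27% lower. Hspa5, their Hsp70, was at 2475 and 1971 CPM (ratio 0.796, interval 0.758 to 0.837) and Hsp90b1, their Hsp90, at 805 and 554 CPM (0.689, 0.629 to 0.754). None of the 8 subunits of the cytosolic chaperonin TRiC passed the fold there, with Cct2 at 236 and 176 CPM (0.748) and Cct6a at 217 and 169 CPM (0.776). Hspa9, the Hsp70 of mitochondria, was at 327 and 275 CPM (0.842) and Dnaja3, its J-domain partner, at 25.5 and 25.6 CPM, against the higher Hspd1 and Hspe1 of the same compartment, and 1 of the 6 measured mitochondrial genes of the list was lower. The polyubiquitin gene Ubb, which heat shock also induces, was at 2161 and 1566 CPM (0.725). Apart from the members Hspd1 and Hspe1, no measured gene of the reticulum, TRiC or mitochondrial lists was higher past the fold in MuSC-like cells. For lists of 8 and 6 genes, a count of 0 or 1 past the fold is near the shares of all genes.

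In EC-like cells 15 of the 16 reticulum genes were below 1 and 3 were lower past the fold (4.13% of all genes), with Hspa5 at 1295 and 950 CPM (ratio 0.734), whereas in tenocyte-like cells 5 of 16 were higher (9.08% of all genes) and Hsp90b1 was at 461 and 677 CPM (1.47). TRiC subunits passed the fold in none of the 8 classes, where 9.08% to 12.0% of all genes were higher and 3.08% to 9.27% lower. Bag3 was higher in macrophage-like cells too (343 and 600 CPM, 1.751), and in pericyte-like cells it was at 321 and 443 CPM (1.38), against the direction of Dnajb1 and Hspa1b.

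Immediate early genes, which code for transcription factors such as Fos, Jun and Egr1 and are known to be switched on during tissue digestion, moved beside the chaperones in some classes. Their list of 18 genes summed to 0.849% and 1.36% of UMIs in MuSC-like cells (ratio 1.61, interval 1.57 to 1.65). Past the fold 8 of 18 were higher and 1 lower, where 10.1% of all genes were higher and 9.27% lower. In pericyte-like cells it summed to 1.77% and 1.203% (0.680, 0.663 to 0.697), with 11 of 17 measured genes lower and none higher, where 7.58% of all genes were lower. Egr1 was at 1684 and 3415 CPM in MuSC-like cells (2.03), and Junb was at 2167 and 1281 CPM in pericyte-like cells (0.591).

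In FAP-like cells the list went from 1.904% to 1.801% (ratio 0.946) and in SMC-like cells from 1.59% to 1.297% (0.815), while the chaperone sums had ratios of 1.28 and 1.097. The direction of the 2 lists was therefore the same in MuSC-like, pericyte-like, EC-like, tenocyte-like and macrophage-like cells and opposite in FAP-like, SMC-like and B cell-like cells. How much of any chaperone difference arose while the muscle was digested and sorted was not tested, and with 1 preparation per library the treatment and the preparation cannot be told apart.

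**Figure D5:**
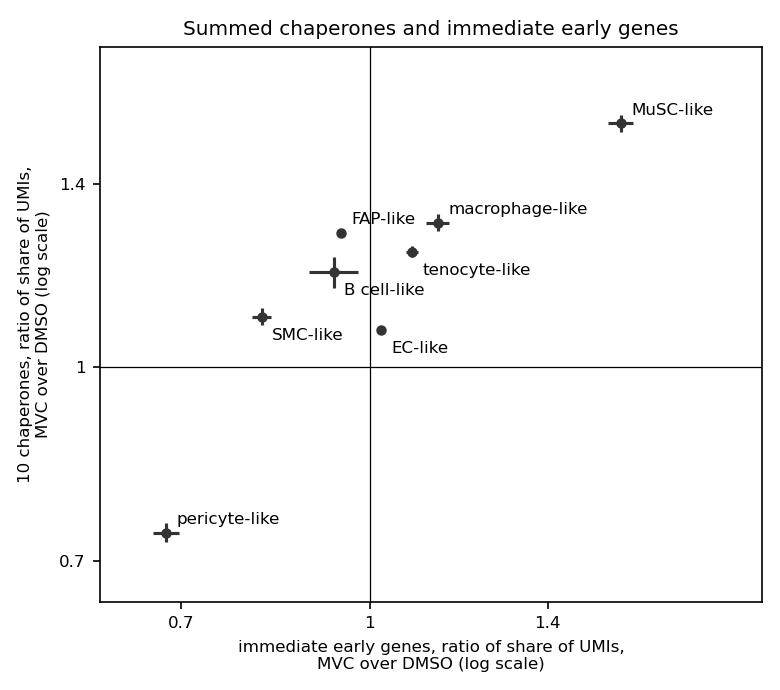
Ratio, MVC over DMSO, of the share of UMIs in the 10 chaperones (vertical, log scale) against that of the immediate early genes (horizontal, log scale) in the 8 classes, with 95% counting intervals that are often smaller than the point. MuSC-like cells lie at 1.61 and 1.57 and pericyte-like cells at 0.680 and 0.738, and the other 6 lie between them on both axes.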

How the data were processed

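The 10 chaperones, the gene lists and the markers were chosen with earlier results of these data known. The authors deposited raw UMI counts per gene and barcode for both libraries, not normalised. Cell Ranger 7.0.0, Seurat 5.0.1 and mm10 are named in the submitters' processing notes, and the treatment of intronic reads was not given in the sources used here. Following the study's methods, barcodes under 500 genes or over 10% mitochondrial UMIs were removed, which left 38748234 DMSO and 35518029 MVC UMIs. Counts scaled to 10000 UMIs per cell were clustered (2000 variable genes without chaperone, immediate early, sex-linked and mitochondrial genes, 30 principal components, 20 neighbours, Leiden resolution 1, leidenalg 0.10.2, scikit-learn 1.9.0, without integration). A cluster was named when at least 3 markers of a class were raised (log2 fold of at least 1, in at least 20% of cells), and 1 cluster of low depth stayed unnamed. These names are not the authors' own and can differ from those in the study. Doublets, scored against artificial doublets at a rate of 0.8% per 1000 cells, were kept in the main values and numbered 236 in DMSO and 238 in MVC.

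For each class in each library, the UMIs of a gene were added up and given per 1000000 UMIs of the class (CPM), with exact Poisson intervals. Ratios carried exact conditional intervals and shares exact Clopper-Pearson binomial intervals (SciPy 1.17.1). All cover counting error only. Genes with at least 50 UMIs over both libraries were measured in a class, and a ratio past 1.5-fold was counted. No p-value was computed. All 10 members are reported, and beside them the 2 genes with most UMIs of each list (1 of these genes is not reported here) and the 5 genes most like Hspa1a and Hspb1. The calculations were tested on simulated data. Alternatives were a stricter cell filter, doublet removal, median-of-ratios scaling, the mean of cell CPM, thinning to 2000 UMIs, classes from each cell's own markers, clustering with chaperone genes, mitochondrial UMIs left out, and, chosen after seeing the data, clusters weighted alike and the 1% of cells with most UMIs of a gene left out.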

Additional observations from a re-analysis of the deposited data

Results flagged for a closer look

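For 3 members the difference between the libraries had opposite directions past 1.5-fold in different cell classes, and this was flagged from the ratios alone. How many of all genes did so was not counted. With 1 library per group the difference between classes was not tested. Dnajb1 had a log2 ratio of 1.47 in MuSC-like and -0.88 in pericyte-like cells. Hspa1b had one of 0.61 in MuSC-like and -0.66 in pericyte-like cells, and each was within the fold under 2 of the 10 alternatives. Hspb1 had one of 0.83 in MuSC-like, 1.84 in B cell-like and -0.61 in pericyte-like cells. The pericyte-like value was within the fold under 2 of the 10 alternatives. In B cell-like cells 46.1% of the DMSO and 56.7% of the MVC UMIs of Hspb1 came from 3 cells each.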

How the results depend on the processing

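Of the 17 pairs of member and class past 1.5-fold, 11 stayed past it under all 10 alternatives and 6 did not, 10 further pairs passed it under at least 1 alternative, and no called pair changed direction. The count of members higher in MuSC-like cells stayed within 1.5 times its value under each alternative. In pericyte-like cells 1 member was lower under the stricter cell filter and under classes from own markers. In EC-like cells 1 member was higher in place of 0 under the stricter cell filter, doublets removed, the mean of each cell's CPM, thinning, own markers, clusters weighted alike and the top 1% of cells left out. In FAP-like cells 0 were higher under median-of-ratios scaling, the mean of each cell's CPM and clusters weighted alike, and 2 under doublets removed, own markers, chaperone genes kept for clustering, mitochondrial UMIs left out and the top 1% of cells left out. In tenocyte-like cells 0 were higher under doublets removed, the mean of each cell's CPM and thinning, and 2 with the top 1% of cells left out. In SMC-like cells 1 was higher under doublets removed and under own markers. With the top 1% of cells left out 4 were higher in macrophage-like cells, and with chaperone genes kept for clustering 1 was lower in B cell-like cells. The causes were not tested. No paired analysis was possible because each group held 1 library. The members had at least 137 UMIs in each of these classes and libraries. The part of depth per cell in the ratios was not tested, and replicate libraries were lacking.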

Other observations

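In the classes with fewer than 100 cells in a library, chaperone levels are given as values only. Skeletal muscle fibre-like cells, 14 in DMSO and 24 in MVC, had Hspb1 at 5689 CPM (interval 5131 to 6291) and 2431 CPM (2120 to 2775), and Hsph1 at 15.01 CPM, from 1 UMI, and 577 CPM, with 82.1% and 58.5% of the Hspb1 UMIs and 92.3% of the MVC Hsph1 UMIs from 3 cells. Lymphatic EC-like cells, 75 and 79, had a summed chaperone share of 1.55% and 1.38%, with Hspe1 at 481 and 287 CPM (ratio 0.597, interval 0.487 to 0.728). Perineurial-like cells, 98 and 76, had a share of 1.05% and 0.872%, with Hsp90aa1 at 2099 and 1261 CPM (0.601, 0.549 to 0.657) and Hspe1 at 689 and 394 CPM (0.571, 0.485 to 0.670). In T/NK-like cells, 196 and 60, the share was 1.13% and 1.24%, and Hspb1 was at 196 and 737 CPM, with 39.9% of its DMSO and 72.5% of its MVC UMIs from 3 cells. Schwann-like cells, 99 and 127, had shares of 1.45% and 1.66%.

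The barcodes removed by the cell filter, 375 in DMSO and 593 in MVC, also held the chaperones. Hspa1a was at 2115 and 1780 CPM in them (ratio 0.841, interval 0.767 to 0.924) and Hspb1 at 2809 and 1503 CPM (0.535, 0.489 to 0.586), while in the kept cells Hspa1a was at 3355 and 4153 CPM. Hsph1 was the member with the highest ratio in the removed barcodes, at 833 and 1069 CPM (1.28, 1.120 to 1.47). The directions of Hspa1a in kept and in removed barcodes were opposite.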
